A study of Homo sapiens with 9 samples.

Results

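The LIS1 complex and its NDE1 partners were followed here as 5 genes, PAFAH1B1, PAFAH1B2, PAFAH1B3, NDE1 and NDEL1, taken by symbol from the 42785 genes of each count table. PAFAH1B2, and with it the set, was chosen by its count, the highest of the Nrp1 precipitates, so its Nrp1-IP values are given as a description with no test. All RNA came from SH-SY5Y, a human neuroblastoma line kept in DMEM high glucose with 10% FBS, and no treatment is given in the labels. The groups were RNA recovered on beads carrying a mouse antibody to DCC (DCC-IP), RNA recovered on beads carrying a rabbit antibody to Nrp1 (Nrp1-IP) and lysate RNA with no precipitation (Input), in 3 libraries each, 9 in all. DCC and Nrp1 are axon guidance receptors for netrin-1 and for semaphorin 3A, and the comparisons ask which mRNAs each receptor's precipitate holds. The precipitates differ in the antibody and its host species as well as in the receptor, which cannot be told apart, and no library from a control antibody was analysed here.

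PAFAH1B1 encodes LIS1, the protein lost in classical lissencephaly, which binds the motor cytoplasmic dynein and is needed for neuronal migration and nuclear movement. LIS1 is also the regulatory subunit of the cytosolic platelet-activating factor acetylhydrolase, whose catalytic subunits are encoded by PAFAH1B2 and PAFAH1B3. NDE1 and NDEL1 are related scaffolds that bring LIS1 to dynein.

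The gene counts summed to between 8838296 and 11055895 per library, and 6652 to 12240 genes per library had at least 1 count, with the fewest in DCC-IP replicate 1. A level is given below as the count, as a share of a library's gene counts, or in CPM, the count scaled to the usual common library total, after TMM scaling over the 9 libraries. CPM without the TMM factors is called unscaled. None of these is divided by gene length. The floor used here, 3 counts, lies at 0.271 to 0.339 unscaled CPM. The cDNA was amplified by PCR, and molecular identifiers were not described, so floors and intervals cover counting error only. MAP1B, a microtubule-associated protein gene, held 47.4% ± 6.20 of the DCC-IP counts (SD, n = 3), against 2.103% ± 0.460 in Nrp1-IP and 2.099% ± 0.206 in Input, so shares in DCC-IP are also given with MAP1B left out of the total. The DCC gene itself was at 0 in all 9 libraries. NRP1 had counts of 0, 26 and 23 in the DCC-IP libraries, against 55, 83 and 36 in those of Nrp1-IP and 198, 320 and 234 in the Input ones. Of 10 genes that mark sympathoadrenal neuroblastoma cells, 9 were detected, with their summed level at 1813 to 3301 unscaled CPM over the DCC-IP libraries, 1175 to 1508 over Nrp1-IP and 228 to 426 over Input, while TH, the tyrosine hydroxylase gene, was at 0 in every library. ISL1, a transcription factor gene, made up most of that sum. Genes of substrate-adherent cells of such lines summed to between 3.00 and 26.2 unscaled CPM, with 3 of 8 at 0 throughout. The part of these differences in the results below was not tested.

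The DCC-IP libraries held 27929, 42471 and 40431 counts of PAFAH1B2. The Nrp1-IP libraries held 341338, 333191 and 365690, and the Input libraries 272222, 244413 and 165503. The DCC-IP libraries all lay far below the other 6. After TMM scaling, 18.1% of all genes tested had DCC-IP wholly below Input and 15.6% had Nrp1-IP wholly above DCC-IP. The other 4 genes had 3 to 90 counts per library for all 4 together.

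**Figure D1:**
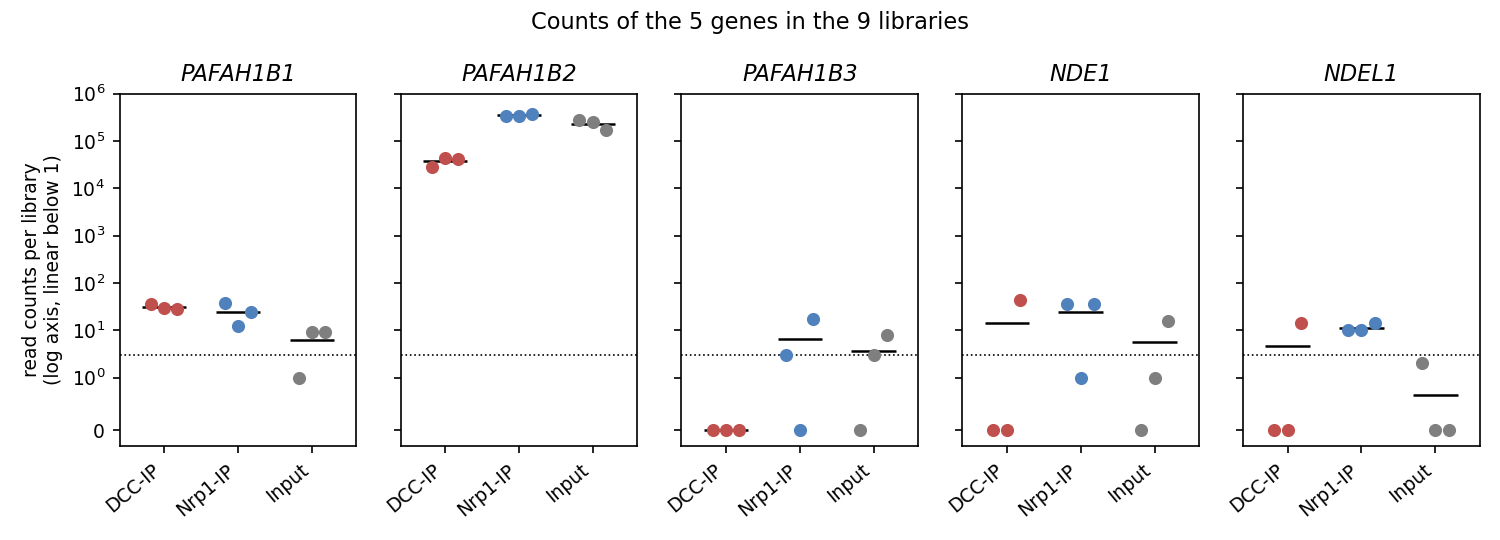
Read counts of PAFAH1B1, PAFAH1B2, PAFAH1B3, NDE1 and NDEL1 (1 panel each, log axis that is linear below 1) in the 3 libraries of DCC-IP, Nrp1-IP and Input. Points are libraries, short lines are group means and the dotted line is the floor of 3 counts. PAFAH1B2 lies between 27929 and 365690 counts, and the 3 DCC-IP libraries are its lowest, while no other gene of the set goes past 43 counts.

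PAFAH1B2 encodes a catalytic subunit of the acetylhydrolase. It took 0.254%, 0.384% and 0.390% of the gene counts in DCC-IP, with a mean of 0.343% ± 0.0770 (SD, n = 3). Its share of the Input counts was 2.55%, 2.43% and 1.87%, with a mean of 2.28% ± 0.362. The DCC-IP and Input ranges did not overlap, and Wilson 95% intervals were far narrower than the spread between libraries, at 0.251% to 0.257% for DCC-IP replicate 1. With MAP1B left out of the totals, the shares were 0.504%, 0.802% and 0.653% in DCC-IP and 2.61%, 2.49% and 1.91% in Input, and the ranges still did not overlap. Among all genes tested, 18.1% had DCC-IP wholly below Input on the TMM scale, where PAFAH1B2 did not overlap either.

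In edgeR, PAFAH1B2 was lower in DCC-IP than in Input by 8.29-fold (log2 fold change −3.05, SE 0.29, quasi-likelihood test with Benjamini-Hochberg adjusted p = 0.00513). Of the 6223 genes tested in this comparison, 4.98% were called in either direction and 3.52% were called lower. PAFAH1B2 was the 1 gene of the set called, of 2 that passed the filter on low counts. With the replicate numbers as a block, which more than doubled the calls across all genes from 310 to 715, the PAFAH1B2 difference was −3.03 on the log2 scale (edgeR, adjusted p = 0.000708). Leaving out DCC-IP replicate 1 left a difference of −2.98 that was not called (edgeR, adjusted p = 0.0766), and so did leaving out DCC-IP replicate 2 (−2.83, adjusted p = 0.0975). Those edgeR fits called 0 and 1 genes in all, with 1554 and 1338 at an unadjusted p under 0.05, and DESeq2 and the exact test on the 6 libraries each called PAFAH1B2. The direction was the same in each of the fits run, from −3.28 to −2.70 with a library left out and from −3.18 to −2.74 under the other settings, the one without MAP1B included (−2.81, edgeR adjusted p = 0.0268).

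In Nrp1-IP the share of PAFAH1B2 was 3.51%, 3.31% and 3.34%, with a mean of 3.39% ± 0.109 (SD, n = 3). Every Nrp1-IP library was above every Input library on this scale. The share of all genes for which that held was taken only on the TMM scale, where it was 17.7% of the genes tested. On the TMM scale the ranges overlapped, with 31917, 30685 and 27446 CPM in Nrp1-IP and 35117, 29144 and 20799 CPM in Input, and the means were 30016 ± 2309 and 28354 ± 7192 CPM. DCC-IP had 3158, 3399 and 2795 CPM, with a mean of 3117 ± 304 CPM. On either scale the group means were in the order Nrp1-IP, Input and DCC-IP. The choice of PAFAH1B2 by its Nrp1-IP count favours the first place of Nrp1-IP, and no test was made of it.

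The fitted log2 fold change of PAFAH1B2 was 0.17 (SE 0.24) in Nrp1-IP over Input and 3.10 (SE 0.27), or 8.58-fold, in Nrp1-IP over DCC-IP. The first depended on the scaling and on a single library. It was 0.57 with library size only, −0.02 with RLE size factors and −0.17 without Input replicate 3. The second stayed between 3.09 and 3.40 in every fit run. The comparisons share libraries, so these values are not separate evidence. Relative to the median gene of each comparison, which lay at 0.16, 0.06 and −0.27 on the log2 scale, PAFAH1B2 differed by −3.21 in DCC-IP over Input, 0.11 in Nrp1-IP over Input and 3.37 in Nrp1-IP over DCC-IP.

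**Figure D2:**
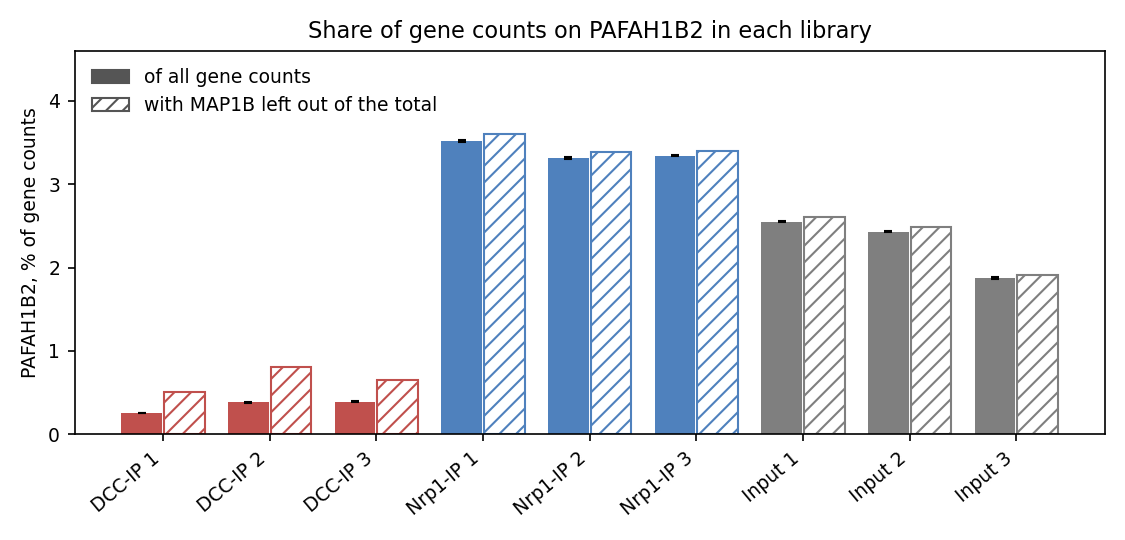
Share of the gene counts on PAFAH1B2 (vertical axis, percent, from 0) in each of the 9 libraries. Filled bars use all gene counts, with Wilson 95% intervals drawn as error bars, and hatched bars leave MAP1B out of the total. Filled bars stand at 0.254% to 0.390% in DCC-IP, 3.31% to 3.51% in Nrp1-IP and 1.87% to 2.55% in Input, and the hatched bars in DCC-IP reach at most 0.802%.

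**Figure D3:**
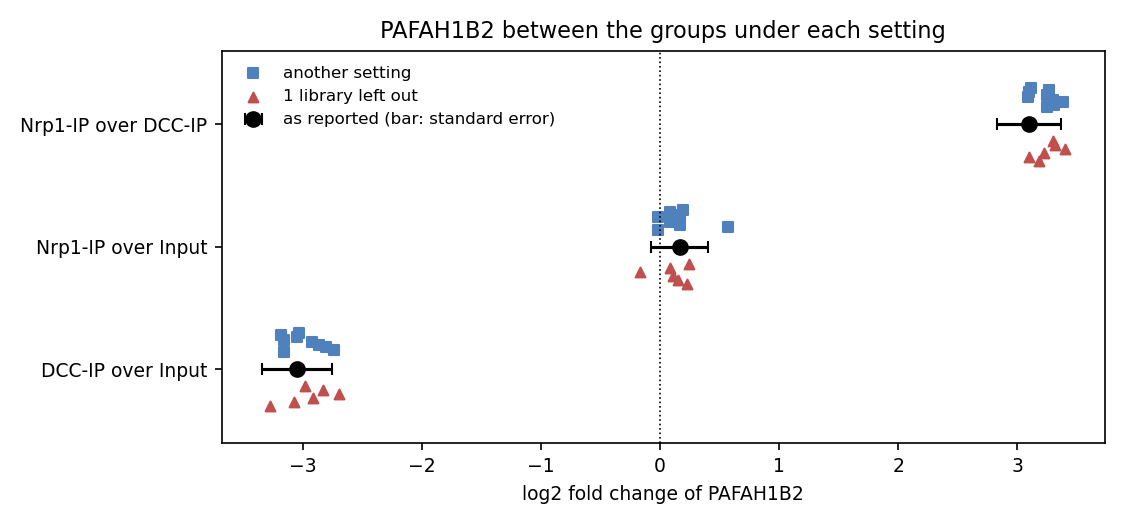
Log2 fold change of PAFAH1B2 (horizontal axis) in the 3 comparisons. Black circles are the values reported with their standard errors, squares are other settings of the analysis and triangles are fits with 1 library left out. The DCC-IP over Input values lie between −3.28 and −2.70, those of Nrp1-IP over DCC-IP between 3.09 and 3.40, and those of Nrp1-IP over Input on both sides of 0.

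By raw counts, which longer transcripts and the amplification also shape, PAFAH1B2 ranked 1, 2 and 2 among the genes of the Nrp1-IP libraries and 1, 4 and 4 in Input. In DCC-IP it ranked 33, 19 and 21. Summed over the 3 Nrp1-IP libraries it had 1040219 counts and led USP22, a deubiquitinase gene, with 1024321, yet USP22 was first in replicates 2 and 3. Next came TMEM33, which encodes an endoplasmic reticulum membrane protein, with 661491 counts, MAP1B with 639879 and the transcript RP11-746M1.1 with 492066. In Input PAFAH1B2 stood behind YWHAE and ANP32E, with 682138 counts against 734519 and 687026.

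PAFAH1B1, the LIS1 gene, had counts of 36, 29 and 28 after DCC precipitation. It had 37, 12 and 24 counts after Nrp1 precipitation and 1, 9 and 9 in the Input libraries. Both precipitates had more counts than any Input library, and after TMM scaling only the DCC-IP range stayed clear of Input, with a DCC-IP mean of 2.78 ± 1.14 CPM, a Nrp1-IP mean of 2.12 ± 1.21 and an Input mean of 0.778 ± 0.563 (SD, n = 3). Of all genes tested in DCC-IP over Input, 15.2% had DCC-IP wholly above Input.

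The fitted difference of PAFAH1B1 was 1.88 on the log2 scale in DCC-IP over Input (SE 1.36, edgeR adjusted p = 0.486), opposite in sign to that of PAFAH1B2. It was 1.53 in Nrp1-IP over Input (SE 1.08, edgeR adjusted p = 0.467) and −0.52 in Nrp1-IP over DCC-IP (SE 1.11, edgeR adjusted p = 0.887). None was called, also with a library left out. The last value turned to 0.02 without DCC-IP replicate 1. A missing call does not show that LIS1 mRNA was alike in the groups.

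PAFAH1B3, the other catalytic subunit gene, was at 0 in all 3 DCC-IP libraries, where 3 counts would be 0.271 to 0.289 unscaled CPM. It had 3, 0 and 17 counts in Nrp1-IP and 0, 3 and 8 in Input, and it passed the filter in no comparison. The precipitates and Input overlapped. The catalytic subunits thus differed in what could be measured, since PAFAH1B2 had at least 27929 counts in each library and PAFAH1B3 at most 17.

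NDE1 had counts of 0, 0 and 43 in the DCC-IP libraries, against 36, 1 and 35 in those of Nrp1-IP and 0, 1 and 16 in the Input ones. A single library held all of the DCC-IP counts, and every group overlapped with the others. Its log2 difference was 1.51 in Nrp1-IP over Input (SE 1.71, edgeR adjusted p = 0.675), moving from 0.92 without Input replicate 1 to 4.75 without Input replicate 3, which held 16 of the 17 Input counts, and 0.89 in Nrp1-IP over DCC-IP (SE 1.99, edgeR adjusted p = 0.895), and it did not pass the filter in DCC-IP over Input. Without DCC-IP replicate 3, the one with counts, DCC-IP is at 0 and no fold is given.

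NDEL1 had counts of 0, 0 and 14 in the DCC-IP libraries, against 10, 10 and 14 in those of Nrp1-IP and 2, 0 and 0 in the Input ones. All 3 Nrp1-IP libraries lay above all 3 Input libraries, at 0.969 ± 0.0712 CPM against 0.0860 ± 0.149 CPM (SD, n = 3), but NDEL1 did not pass the filter there, and no test was made. Among the genes that did pass, 17.7% had Nrp1-IP wholly above Input. In Nrp1-IP over DCC-IP the log2 difference was 1.40 (SE 1.79, edgeR adjusted p = 0.786), and without DCC-IP replicate 3 no fold is given, as for NDE1. DCC-IP replicate 3, which held all the NDE1 and NDEL1 counts of its group, also had the most detected genes of the DCC-IP libraries, 11259 against 6652 and 9036. Replicate 3 had the most in Nrp1-IP and Input as well, at 12240 and 11937.

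Counted over the set, 2 of 5 genes passed the filter in DCC-IP over Input, 3 in Nrp1-IP over Input and 4 in Nrp1-IP over DCC-IP. The share of genes called was 4.97% in Nrp1-IP over Input and 3.65% in Nrp1-IP over DCC-IP. PAFAH1B1 and NDE1 were called in neither by edgeR, DESeq2 or the exact test. NDEL1, tested only in Nrp1-IP over DCC-IP, was not called there by any of them. Among these tests 0 were at an unadjusted p under 0.05. Log2 ratios of the counts of a pair of genes within a library, with 0.5 added to each count, need no scaling between libraries where both genes have counts. The ratio of PAFAH1B1 to PAFAH1B3 was 5.97 ± 0.193 over the DCC-IP libraries, 2.85 ± 2.14 over those of Nrp1-IP and 1.06 ± 0.784 over those of Input (SD, n = 3). The DCC-IP over Input difference was 4.91 and the Nrp1-IP over DCC-IP difference −3.12, and each had a two-sided exact permutation p = 0.1, the smallest that 3 libraries against 3 allow (0.35 adjusted over 7 tests). The Nrp1-IP over Input difference was 1.79 (exact permutation p = 0.3). PAFAH1B3 was at 0 in all of DCC-IP, in Nrp1-IP replicate 2 and in Input replicate 1. The size of each of these differences thus depends on the 0.5 added and on the library totals. The ratio of PAFAH1B2 to PAFAH1B3 differed by −0.32 in DCC-IP over Input (exact permutation p = 0.9), with the same limit. For NDEL1 to NDE1, counted among the 7 tests, no ratio is given, since both genes were at 0 in 2 of the DCC-IP libraries.

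Overlapping genes can lend or take reads where the counting ignores strand, and the strand setting is not given in the sources used here. MYH11, which overlaps NDE1 in the GRCh38 gene list, had 204 to 1026 counts per library, more than NDE1 in each. MYH10, which overlaps NDEL1, had 0 to 84 counts, and PRR19, which overlaps PAFAH1B3, had 0 to 87. The low counts of these 3 genes are uncertain for that reason. SIDT2, next to PAFAH1B2, had at most 24 counts. Pseudogenes of PAFAH1B1 and PAFAH1B2 exist in the genome, and reads shared with them may have been set aside as not unique, which 2.83% to 3.83% of all reads were. Reads that HTSeq found ambiguous made up 0.195% to 0.517% of a library, and reads assigned to no feature 48.7% to 55.8%.

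The genes whose profile over the 9 libraries lay nearest to that of PAFAH1B2 were ALDH6A1, SEC22B, LCN15, RNFT2 and RMND5A, of 7627 compared. Nearness was the root mean square difference of log2 CPM after each gene was centred on its own mean, and it was 0.225, 0.227, 0.231, 0.232 and 0.243. ALDH6A1 encodes a mitochondrial aldehyde dehydrogenase and had counts of 733, 1076 and 1304 in the DCC-IP libraries, against 9041, 11060 and 12128 in those of Nrp1-IP and 10779, 9175 and 6049 in the Input ones. SEC22B encodes a SNARE protein of the early secretory pathway. It had counts of 1350, 3227 and 3254 in the DCC-IP libraries, against 18049, 24808 and 24756 in those of Nrp1-IP and 17711, 16792 and 10825 in the Input ones. LCN15 was at 0 in DCC-IP and at most 28 counts elsewhere, so its place rests on few reads. With library size only, 4 of the 5 were again among the nearest 5. Of the set, NDEL1 was at 1.69 (place 2513), NDE1 at 2.24 (place 5198) and PAFAH1B1 at 2.26 (place 5282). These places also rest on few reads, at most 43 counts per library. NUDCD2, a gene of the NudC family, was at 0.544 (place 78) and DCX, the doublecortin gene, at 0.699 (place 181). They were the nearest among the genes of proteins that act with LIS1 or NDEL1, listed below. The other genes of that list that were compared lay from 1.54 (NUDCD3, place 1887) to 3.86 (CENPF, place 7624). The profiles share libraries and their scaling, so nearness is a description only.

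**Figure D4:**
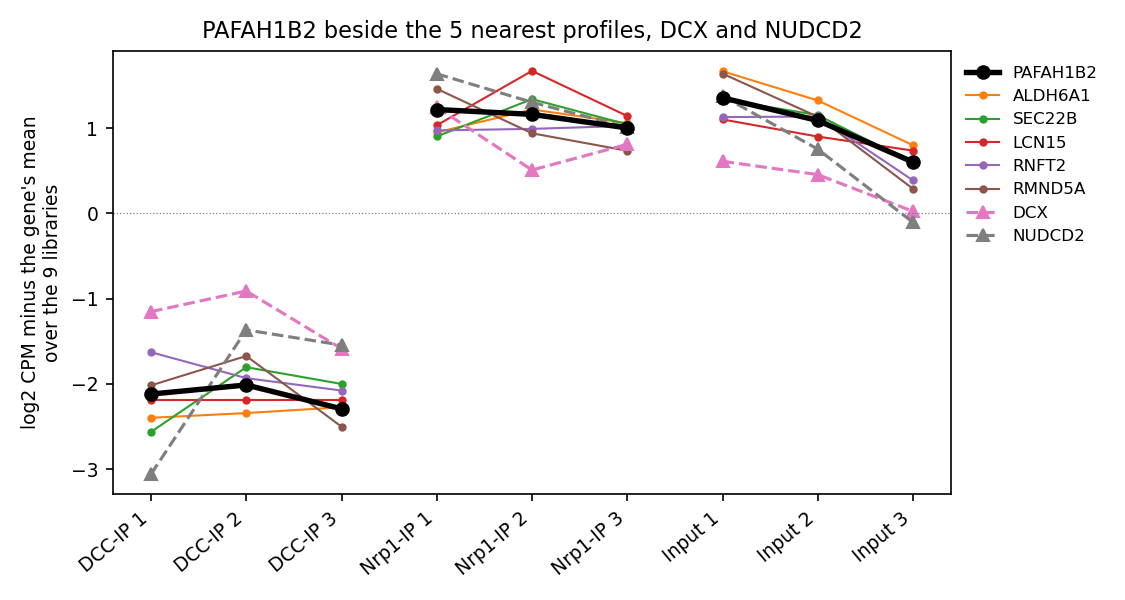
Log2 CPM minus the gene's own mean over the 9 libraries (vertical axis) in each library of DCC-IP, Nrp1-IP and Input. The thick black line is PAFAH1B2 and thin lines are the 5 nearest genes. Dashed lines are DCX and NUDCD2, the nearest of the LIS1 and NDEL1 partners. Lines join the libraries of a group and carry no order. The nearest genes lie within a root mean square difference of 0.243 of PAFAH1B2, with DCX at 0.699 and NUDCD2 at 0.544.

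The wider pathway was read from 5 lists, of cytoplasmic dynein subunits, subunits of its cofactor dynactin, dynein adaptors, proteins that act with LIS1 or NDEL1, and other acetylhydrolases of platelet-activating factor, 59 genes in all. Of these, 29 passed the filter in DCC-IP over Input, with 2 called higher and 3 lower. In Nrp1-IP over Input 28 passed, with 1 higher and 3 lower, and in Nrp1-IP over DCC-IP 30 passed, with 2 higher and 2 lower. Median log2 differences over the genes that passed were 0.0003, 0.25 and −0.66, beside 0.16, 0.06 and −0.27 over all genes tested. Across all genes tested, 1.46% were called higher and 3.52% lower in DCC-IP over Input, 1.94% higher and 3.03% lower in Nrp1-IP over Input, and 2.56% higher and 1.09% lower in Nrp1-IP over DCC-IP.

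**Figure D5:**
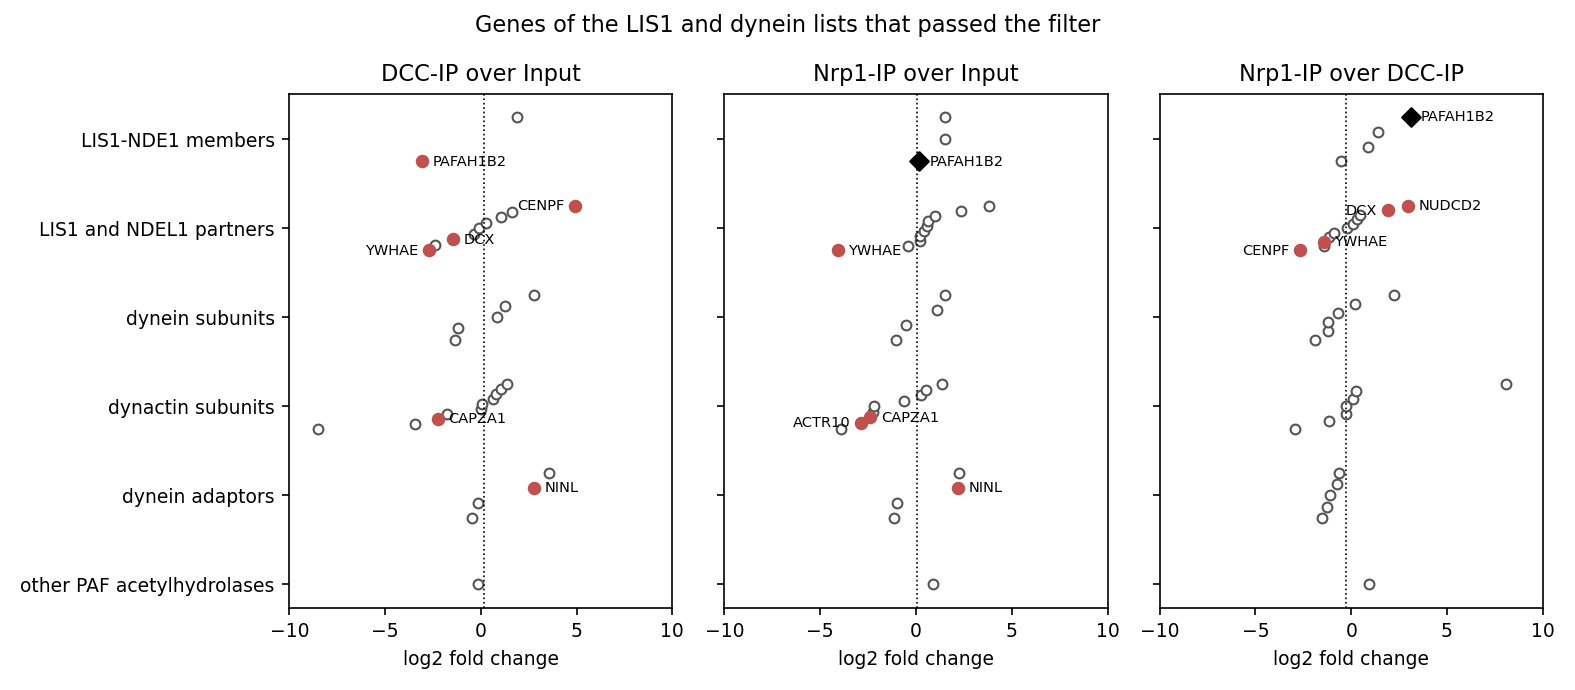
Log2 fold change (horizontal axis) of each gene of the 5 members and the 5 pathway lists that passed the filter, by list, in the 3 comparisons. Filled red circles were called at an adjusted p under 0.05, open circles were not, black diamonds are PAFAH1B2 where it was not tested and the dotted line is the median of all genes tested. CENPF, at 4.92 in DCC-IP over Input, is the highest called gene, and YWHAE, at −4.09 in Nrp1-IP over Input, the lowest; the open circles beyond 8 are ACTR1A, which was at 0 in DCC-IP.

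Among the LIS1 and NDEL1 partners, 9 of 20 passed the filter in DCC-IP over Input, 10 in Nrp1-IP over Input and 11 in Nrp1-IP over DCC-IP. DCX encodes doublecortin, a microtubule-binding protein whose loss also causes lissencephaly. It had counts of 11811, 19722 and 14264 in the DCC-IP libraries, against 75280, 45850 and 69241 in those of Nrp1-IP and 35153, 34051 and 23981 in the Input ones. It was lower in DCC-IP than in Input (log2 fold change −1.45, SE 0.32, edgeR adjusted p = 0.0383) and higher in Nrp1-IP than in DCC-IP by 1.90 (SE 0.34, edgeR adjusted p = 0.0162). In Nrp1-IP over Input its difference was 0.59 (edgeR adjusted p = 0.27). The DCC-IP over Input call did not hold when any library other than Input replicate 3 was left out (−1.46 to −0.996, edgeR adjusted p up to 0.26), nor without MAP1B (−1.19, adjusted p = 0.121), nor with RLE, library size only, no filter or the exact test (edgeR adjusted p of 0.0586, 0.0552, 0.221 and 0.068). The Nrp1-IP over DCC-IP call was lost without Nrp1-IP replicate 1 (1.87, edgeR adjusted p = 0.0883) or replicate 2 (2.07, adjusted p = 0.054).

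NUDCD2, whose protein is known to stabilise LIS1, had counts of 53, 247 and 252 in the DCC-IP libraries, against 1711, 1378 and 1376 in those of Nrp1-IP and 1036, 725 and 379 in the Input ones. As for PAFAH1B2, the 3 DCC-IP libraries were the lowest. Of all genes tested, 18.1% had DCC-IP wholly below Input and 15.6% had Nrp1-IP wholly above DCC-IP. NUDCD2 was higher in Nrp1-IP than in DCC-IP by 2.96 on the log2 scale (SE 0.61, edgeR adjusted p = 0.0295). In DCC-IP over Input its difference was −2.42 (SE 0.75, edgeR adjusted p = 0.1002), which DESeq2 called and the exact test did not, and in Nrp1-IP over Input 0.63 (edgeR adjusted p = 0.466). Without any Nrp1-IP library the first was between 3.00 and 3.13 and not called (edgeR adjusted p of 0.133, 0.131 and 0.0668).

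YWHAE encodes the 14-3-3 epsilon protein, which binds phosphorylated NDEL1. It had counts of 36609, 42979 and 72121 in the DCC-IP libraries, against 18212, 19951 and 21009 in those of Nrp1-IP and 250760, 245395 and 238364 in the Input ones. The 3 groups did not overlap. Of all genes tested, 18.1% had DCC-IP wholly below Input, 13.8% had Nrp1-IP wholly below Input and 10.9% had Nrp1-IP wholly below DCC-IP. YWHAE was lower than in Input in DCC-IP (log2 fold change −2.72, SE 0.28, edgeR adjusted p = 0.00513) and in Nrp1-IP (−4.09, SE 0.23, edgeR adjusted p = 0.000869). It was lower in Nrp1-IP than in DCC-IP (−1.44, SE 0.27, edgeR adjusted p = 0.0184). The first call was lost without DCC-IP replicate 1 or 2 (−2.65 and −2.35, edgeR adjusted p of 0.0766 and 0.0975), and the next without Nrp1-IP replicate 1 (−4.09, adjusted p = 0.0571). The last was lost without any Nrp1-IP library or DCC-IP replicate 3 (−1.48 to −0.92, edgeR adjusted p up to 0.303) and with library size only (−1.30, adjusted p = 0.0589).

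CENPF, a kinetochore protein gene whose product binds NDE1 and NDEL1, moved the other way from PAFAH1B2. It had counts of 2565, 1005 and 2200 in the DCC-IP libraries, against 229, 254 and 574 in those of Nrp1-IP and 3, 39 and 101 in the Input ones. It was higher in DCC-IP than in Input by 4.92 on the log2 scale (SE 1.13, edgeR adjusted p = 0.0444) and lower in Nrp1-IP than in DCC-IP (log2 fold change −2.66, SE 0.55, edgeR adjusted p = 0.0303). The Nrp1-IP over Input difference was 2.35 (edgeR adjusted p = 0.225). The DCC-IP over Input call was lost without DCC-IP replicate 1 or 2 or Input replicate 1 or 2 (4.33 to 5.68, edgeR adjusted p up to 0.14), and with library size only or without MAP1B (adjusted p of 0.0525 and 0.0576). The Nrp1-IP over DCC-IP call held only without DCC-IP replicate 2, and in the other fits with a library left out it was −3.02 to −1.96 (edgeR adjusted p up to 0.314), and it was also lost with library size only or all 9 libraries in one fit (adjusted p of 0.0523 and 0.177).

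Of 12 dynactin genes, 10 passed the filter in DCC-IP over Input, with 1 lower, and 9 in Nrp1-IP over Input, with 2 lower. Of all genes tested, 3.52% and 3.03% were called lower in these comparisons. In Nrp1-IP over DCC-IP edgeR called 0 of the 7 that passed, with 1 at an unadjusted p under 0.05, beside 3.65% called of all genes tested. CAPZA1 encodes a subunit of the actin capping protein, which also caps the short filament of dynactin. It had counts of 35442, 32580 and 32814 in the DCC-IP libraries, against 27079, 30966 and 35755 in those of Nrp1-IP and 134042, 123855 and 100354 in the Input ones. It was lower than in Input in DCC-IP (log2 fold change −2.24, SE 0.26, edgeR adjusted p = 0.00513) and in Nrp1-IP (−2.39, SE 0.23, edgeR adjusted p = 0.00518). The first call was lost without any DCC-IP library (−2.40 to −1.72, edgeR adjusted p up to 0.15) or without MAP1B (−1.93, adjusted p = 0.0542), and the other without any Nrp1-IP library (−2.43 to −2.35, adjusted p up to 0.0995).

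ACTR10, an actin-related protein of the pointed end of dynactin, had counts of 23, 52 and 66 in the DCC-IP libraries, against 16, 30 and 19 in those of Nrp1-IP and 128, 94 and 129 in the Input ones. It was lower in Nrp1-IP than in Input (log2 fold change −2.89, SE 0.57, edgeR adjusted p = 0.0337), and its DCC-IP over Input difference was −1.77 (edgeR adjusted p = 0.275), which DESeq2 called and the exact test did not. The call held only without Input replicate 3 and was lost in the other 5 such fits (−3.25 to −2.72, edgeR adjusted p up to 0.181) and with all 9 libraries in one fit (adjusted p = 0.106). ACTR1A, the main filament subunit, was at 0 in the 3 DCC-IP libraries, at 24, 21 and 66 counts in Nrp1-IP and at 66, 21 and 27 in Input, and edgeR's quasi-likelihood test called it in no comparison (adjusted p of 0.0603 in DCC-IP over Input and 0.0803 in Nrp1-IP over DCC-IP), while DESeq2 and the exact test called it in both of these.

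Of 14 dynein adaptors, 4 passed the filter in each comparison with Input and 5 between the precipitates. NINL, a ninein-like protein of the centrosome, was the 1 adaptor that edgeR called, and DESeq2 also called SPDL1 in DCC-IP over Input. Across all genes tested, edgeR called 1.46% higher in DCC-IP over Input and 1.94% higher in Nrp1-IP over Input. SPDL1, which recruits dynein to kinetochores, had counts of 180, 44 and 122 in the DCC-IP libraries, against 58, 2 and 84 in those of Nrp1-IP and 2, 12 and 8 in the Input ones, and its DCC-IP over Input difference was 3.57 on the log2 scale (SE 1.21, edgeR adjusted p = 0.123). NINL had counts of 3464, 4248 and 3150 in the DCC-IP libraries, against 1542, 3134 and 2492 in those of Nrp1-IP and 301, 618 and 284 in the Input ones. Both precipitates were above Input without overlap. Of all genes tested, 15.2% had DCC-IP wholly above Input and 17.7% had Nrp1-IP wholly above Input. The differences of NINL were 2.77 on the log2 scale in DCC-IP (SE 0.49, edgeR adjusted p = 0.0190) and 2.18 in Nrp1-IP (SE 0.41, edgeR adjusted p = 0.0295). The first call was lost without DCC-IP replicate 1 or 2 or Input replicate 1 (2.59 to 3.13, edgeR adjusted p up to 0.132), and the other without any library but Input replicate 2 (1.81 to 2.39, adjusted p up to 0.181) and with all 9 libraries in one fit (adjusted p = 0.0507).

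Of the 11 cytoplasmic dynein subunits, 5 passed the filter in DCC-IP over Input, 4 in Nrp1-IP over Input and 6 in Nrp1-IP over DCC-IP, and edgeR called 0, with 0 at an unadjusted p under 0.05. Across all genes tested, edgeR called 4.98%, 4.97% and 3.65% in these comparisons. DESeq2 and the exact test also called 0 of the subunits, with 1 at an unadjusted p under 0.05 by DESeq2 in DCC-IP over Input. The heavy chain gene DYNC1H1 had counts of 1, 13 and 106 in the DCC-IP libraries, against 0, 2 and 10 in those of Nrp1-IP and 0, 0 and 7 in the Input ones. Summed over the list, dynein subunits made up 8.54 to 49.6 unscaled CPM of the DCC-IP libraries, 13.5 to 14.7 of Nrp1-IP and 8.25 to 15.8 of Input. Among the other acetylhydrolases of platelet-activating factor, PLA2G7 was at 0 in all libraries. PAFAH2, an intracellular enzyme, had counts of 2, 127 and 68 in the DCC-IP libraries, against 121, 112 and 174 in those of Nrp1-IP and 80, 43 and 35 in the Input ones, and its log2 differences of −0.15, 0.87 and 0.93 were not called (edgeR adjusted p of 0.960, 0.396 and 0.781 in DCC-IP over Input, Nrp1-IP over Input and Nrp1-IP over DCC-IP).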

How the data were processed

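RNA from SH-SY5Y cells was sequenced in 9 libraries, grouped by the precipitating antibody named in the labels. The authors aligned reads with HISAT2 2.1.0 to hg19 and counted them per gene with HTSeq 0.11.0, per the labels and the paper. The deposited values are raw counts without normalization. HTSeq's summary lines, 68.7% to 70.8% of a library's reads, were left out. The annotation and strand setting are not given in the sources used here.

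Pairs of groups were compared on the deposited counts with edgeR 4.0.16 in R 4.3.3 (filterByExpr with a minimum count of 10, TMM, glmQLFit, glmQLFTest, Benjamini-Hochberg adjusted p under 0.05). The standard error is the log2 fold change divided by the square root of F. Profiles used a prior count of 2. Shares of all genes tested whose groups did not overlap were taken on CPM after TMM scaling. Alternatives covered DESeq2 1.42.0, the exact test, other scalings, filters and totals, all 9 libraries in one fit, the replicate block and each library left out. Members and lists were chosen with earlier results of these data known. Genes named are the members, called list genes, the 5 nearest profiles, the 5 most counted Nrp1-IP genes, MAP1B, the receptors and neighbours of members; DYNC1H1, ACTR1A, PAFAH2, SPDL1, ISL1 and TH were added after their values were seen. Of the list symbols, 4 were matched through older names.

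The labels do not say whether replicates are separate cultures. The paper states in general that its experiments used independent biological replicates, with exceptions to be named where they apply. The p-values measure the spread between these libraries. Replicates differed beyond sampling noise (chi-square per degree of freedom 48.6 to 232). The replicate number was taken from the labels. Deviations from the group means of libraries sharing a number correlated at 0.117, 0.187 and 0.421 between DCC-IP and Input over 7628 genes. DCC-IP replicate 2 with Input replicate 1, which differ in number, was at 0.136. Libraries sharing a number were at 0.215, −0.004 and 0.364 between Nrp1-IP and Input, and at 0.0989, 0.113 and 0.361 between the precipitates. Those of different numbers spanned −0.370 to 0.168. Whether the numbers pair the libraries is thus not settled. On simulated data with 200 genes changed by 3 on the log2 scale and the estimated trended dispersion, the test recovered 14% of the changed genes in DCC-IP over Input (6223 genes), 41.5% in Nrp1-IP over Input (6501 genes) and 32% in Nrp1-IP over DCC-IP (6439 genes). Python 3.11.15 was used for the rest. Gene neighbours come from RefSeq on GRCh38.p14, of another build than the files, so no coordinates are given.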

Additional observations from a re-analysis of the deposited data

How the results depend on the processing

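The genes called in DCC-IP over Input, 310 in the fits reported, numbered 73 without MAP1B, 564 with at least 10 counts in each library of a group, 1032 with DESeq2, 556 with the exact test, 780 with all 9 libraries in one fit, 715 with the replicate block and 0 to 250 with a library left out. In Nrp1-IP over Input, 323 genes became 518 with library size only, 882 with no filter, 586 with the stricter filter, 966 with DESeq2, 660 with the exact test, 125 with all 9 libraries, 556 with the replicate block and 0 to 441 with a library left out. In Nrp1-IP over DCC-IP, 235 became 484 with no filter, 705 with DESeq2, 437 with the exact test, 369 with the replicate block and 74 to 346 with a library left out. The cause of these changes was not tested. The fits reported had 1367, 1405 and 1118 genes at an unadjusted p under 0.05, and the fits with 0 calls, edgeR without DCC-IP replicate 1 and without Nrp1-IP replicate 1, had 1554 and 1061. Scaling moved the share of called genes that were higher, from 29.4%, 39.0% and 70.2% in the order above to 45.8%, 67.8% and 82.3% with library size only, 20.7%, 24.3% and 80.9% with RLE, and 35.6%, 39.0% and 85.0% without MAP1B. The median gene moved to 0.48, 0.44 and −0.10 with library size only.

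Called genes of the 5 pathway lists went from 5 in DCC-IP over Input to 3 with library size only, 2 without MAP1B, 9 with DESeq2 and 0 to 5 with a library left out, from 4 in Nrp1-IP over Input to 2 with all 9 libraries and 0 to 3 with a library left out, and from 4 in Nrp1-IP over DCC-IP to 2 with library size only and 0 to 4 with a library left out. PAFAH1B2 kept its direction in each fit of DCC-IP over Input (−3.28 to −2.70 with a library left out). In Nrp1-IP over Input it was 0.57 with library size only and −0.17 to 0.24 with a library left out. In Nrp1-IP over DCC-IP it was 3.25 with RLE and with DESeq2, 3.31 with library size only, 3.38 without MAP1B, 3.30 with no filter, 3.27 with all 9 libraries and 3.10 to 3.40 with a library left out. PAFAH1B1 in Nrp1-IP over DCC-IP ranged from −0.93 to 0.023, the last without DCC-IP replicate 1. With a library left out, the log2 ratio of NDEL1 to NDE1, which in DCC-IP replicates 1 and 2 comes from the added 0.5 alone, differed by −0.90 to 2.79, −0.46 to 3.22 and −1.02 to 1.29 in DCC-IP over Input, Nrp1-IP over Input and Nrp1-IP over DCC-IP, that of PAFAH1B2 to PAFAH1B3 by −1.42 to 0.98, −1.003 to 1.59 and −0.69 to 1.81, and that of PAFAH1B1 to PAFAH1B3 by 4.46 to 5.17, 0.89 to 2.97 and −4.02 to −1.94. Whether the replicate numbers pair the libraries is not settled, and the block changed no call on a member.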
